A study of Mus musculus with 10 samples.

Results

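Replication-dependent histone genes were taken as the genes whose symbol begins with Hist1h, Hist2h, Hist3h or Hist4h in the mouse annotation GENCODE M21, which names 70 of them. The table of estimated counts holds 68 of these among its 47729 genes, and 51 of the 68 had 10 or more counts in 5 or more of the 10 libraries and were kept. The kept genes are 5 linker histone H1 genes, 13 H2A, 13 H2B, 10 H3 and 10 H4 genes. They lie in the Hist1 cluster (44 genes), the Hist2 cluster (4), the Hist3 cluster (2) and the Hist4 locus (1).

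RNA was sequenced from forelimb buds of mouse embryos at embryonic day 11.5 to 12, from 5 control and 5 knockout embryos of 4 breeding pairs. The 5 knockouts carried Prx1Cre and 2 floxed Cxxc1 alleles (Prx1Cre_+-Cxxc1fl_fl). Prx1Cre is active mainly in limb mesenchyme, so other cells of the bud keep the gene. The controls were of mixed genotype. Control 1 carried Cre and 1 floxed allele (Prx1Cre_+-Cxxc1fl_wt), controls 2 and 4 were CreWT-Cxxc1fl_WT, control 3 was CreWT-Cxxc1fl_fl, and control 5 was Cxxc1fl_fl with a question mark after its Cre entry. Libraries with the same number came from the same litter: litter A gave controls and knockouts 1 and 2, and litters B, C and D gave numbers 3, 4 and 5. The labels name both the 4 breeding pairs and these litters. Controls 1 to 5 had 51, 51, 50, 49 and 50 somites, and knockouts 1 to 5 had 51, 49, 50, 51 and 49.

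Replication-dependent histone genes supply the histones that package new DNA, and their mRNAs accumulate in S phase. Their primary transcripts have no introns, and most of the mRNAs end in a conserved stem-loop in place of a poly(A) tail. The stem-loop is bound by the protein made from Slbp, and the U7 small nuclear ribonucleoprotein directs the cut that follows it. Some members, among them Hist1h1c, Hist1h2bc and Hist2h2be, are known to make polyadenylated mRNAs as well. Cxxc1 encodes a protein that binds unmethylated CpG dinucleotides and belongs to the complexes that methylate lysine 4 of histone H3 at promoters. The sources used here do not say whether the libraries were made by poly(A) selection, a step that sets how much of a histone mRNA without a tail a library holds.

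The 3′ ends are shown because they define the family. The annotated transcripts were searched on the sense strand, after the stop codon, for the letters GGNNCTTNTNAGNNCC. This motif was present in 36 of the 51 kept genes, 21 to 58 bases past the stop codon, and in 0.274% of 58725 other protein-coding transcripts searched whole. Capitals mark the 2 arms of the stem and lower case the loop, read from the GENCODE transcripts and written as DNA, 5′ to 3′, on the gene's strand.
Hist1h2ao: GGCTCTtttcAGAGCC
Hist1h2bk: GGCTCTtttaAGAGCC
Hist1h3g: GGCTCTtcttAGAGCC
Hist1h4f: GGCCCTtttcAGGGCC
Hist1h4b: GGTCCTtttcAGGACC
Hist1h4i: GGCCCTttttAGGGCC
The form of Hist1h2ao (chr13:21810898-21810913, plus strand) was carried by 20 kept genes, of types H1, H2A, H2B and H3 only. The form of Hist1h2bk (chr13:22036300-22036315, plus strand) was carried by 5 H2B and H3 genes, and that of Hist1h3g (chr13:23535889-23535904, plus strand) by that gene alone. All 9 kept H4 genes with the motif had another stem. It was the stem of Hist1h4f (chr13:23551291-23551306, minus strand) in 6 genes, the same stem with another loop in Hist1h4i (chr13:22040966-22040981, minus strand), and that of Hist1h4b (chr13:23757366-23757381, plus strand) in 2 genes. Of the 15 kept genes without the motif, 9 have a gene model that stops at the stop codon, so its absence there describes the annotation. The model of Hist1h2af, with 1 base after the stop codon, cannot hold the motif either. Those of Hist2h3b and Hist1h1a, with 37 and 48 bases, have room for it only at the shorter distances.

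Libraries held 33274911 to 49880815 estimated counts, and 20562 genes passed the filter on low counts and were tested. Levels are given in CPM, counts scaled by library size with a trimmed mean factor for each library. Cxxc1 ranged from 89.5 to 106 CPM among controls and from 73.1 to 76.2 CPM among knockouts, which do not overlap (log2 fold change -0.36, SE 0.05, adjusted p = 0.000144 from edgeR by quasi-likelihood, Benjamini-Hochberg adjusted over all tested genes). An exact two-sided permutation test of the CPM gave p = 0.00794, the smallest that 5 against 5 libraries allow. The sources used here do not say which exons the deletion removes. Over all genes tested, 35.2% passed the threshold of 0.05, 17.1% lower and 18.1% higher in the knockouts. These shares were 13.3% lower and 21.8% higher with library size as the only scaling, which moved the median log2 fold change of all genes to 0.05. Xist reached 4114 CPM in control 1 and, in knockout 3, 2290 CPM, against 0.360 to 5.48 CPM in the other 8 libraries. Markers of several cell types moved with the genotype. Summed markers of limb mesenchyme, the tissue the labels imply, ran from 2004 to 2167 CPM in controls and from 1202 to 1458 CPM in knockouts; of 7, Prrx1, Prrx2, Tbx5 and Pdgfra fell, 0 rose, and Msx1, Twist1 and Hoxd13 did not pass. Macrophage markers went from 53.5 to 67.1 CPM to 204 to 241 CPM, and 10 of 10 passed the test as higher. Markers passed as higher also for erythroid cells (9 of 10), ectoderm (6 of 10), endothelium (6 of 7) and muscle precursors (5 of 7), and no marker of any of these lists was at 0. In bulk RNA, fewer cells of a type and less RNA per cell cannot be told apart.

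The first comparison asked how the summed mRNA of each histone type stood in the knockout buds. All 51 kept genes together held 283 ± 25.6 CPM over controls and 214 ± 13.03 CPM over knockouts (mean ± SD, n = 5), a log2 ratio of -0.40. By type, the summed level was lower in the knockout mean for each of the 5 types, from a log2 ratio of -0.84 for H3 to -0.13 for H4. A sum follows its most abundant genes, so these ratios need not hold for the other genes of a type. The sums take up reads that can move between near-identical copies, and they are descriptions with no test.

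The H3 genes, which encode a core histone, had the lowest log2 ratio of the 5 types. They also had the lowest median of mean levels, 0.463 CPM, and whether their rank goes with scarcity was not tested. Their sum was 10.8, 10.98, 9.84, 10.96 and 9.98 CPM in controls 1 to 5 and 6.505, 5.71, 6.305, 5.23 and 5.55 CPM in knockouts 1 to 5. Every knockout lay below every control, and the log2 ratio was -0.84 (10.5 ± 0.553 against 5.86 ± 0.533 CPM, SD, n = 5). Within litters A to D it was -0.83, -0.64, -1.07 and -0.85.

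H2B, the partner of H2A in the dimers at the nucleosome's faces, summed to 32.6, 35.4, 30.9, 32.4 and 29.7 CPM in controls 1 to 5 and 22.9, 22.6, 22.7, 22.7 and 24 CPM in knockouts 1 to 5. The groups do not overlap (log2 ratio -0.49). H2A summed to 229, 183, 187, 229 and 188 CPM in controls 1 to 5 and 143, 168, 154, 160.2 and 138 CPM in knockouts 1 to 5. All 5 knockouts again lay below the lowest control (log2 ratio -0.41).

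H1, which binds the linker DNA between nucleosomes, summed to 13.1, 14.6, 12.2, 13.2 and 10.7 CPM in controls 1 to 5 and 9.82, 10.4, 10.02, 11.03 and 10.8 CPM in knockouts 1 to 5. Control 5 lay among the knockouts, so the groups overlap (log2 ratio -0.29), and within litter D the log2 ratio was 0.01. H4, the partner of H3 in the central tetramer, summed to 24.01, 24.6, 22.96, 25.8 and 23.2 CPM in controls 1 to 5 and 22.03, 23.3, 25.5, 20.04 and 19.3 CPM in knockouts 1 to 5. Knockouts 2 and 3 lay inside the control range (log2 ratio -0.13), and within litter B the knockout was above the control (log2 ratio 0.15). Much of both sums came from 1 gene each. Hist1h4i held 12.9 of the mean 24.1 CPM of H4 in controls and 13.6 of 22.04 CPM in knockouts. Hist1h1c held 8.04 of the mean 12.7 CPM of H1 in controls and 7.21 of 10.4 CPM in knockouts. Taking all 68 genes of the table in place of the kept 51 gave 285 ± 25.8 CPM against 215 ± 12.7 CPM and again a log2 ratio of -0.40.

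**Figure D1:**
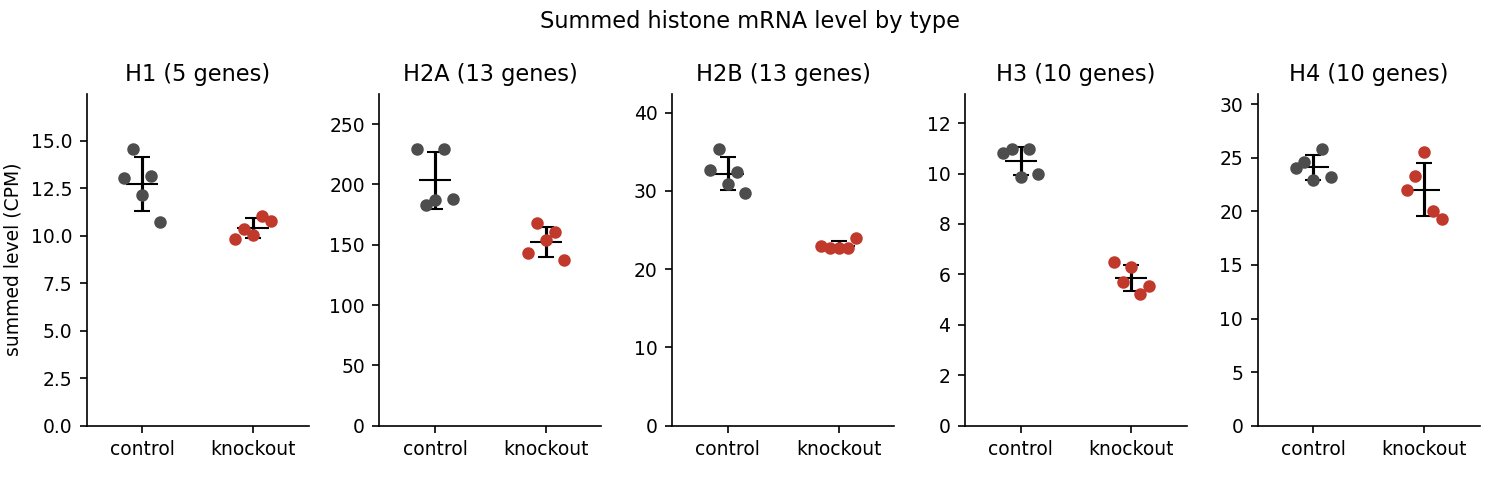
Summed level of the kept genes of each histone type in CPM (vertical axes, each from 0) in the 5 control and 5 knockout libraries (points), with the mean and SD. The groups separate for H2A, H2B and H3 and overlap for H1 and H4.

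Single genes were then tested with all other genes of the table. Of the 51 kept genes, 50 passed the filter of the test. Hist1h2ac was left out by that filter and ranged from 0.209 to 0.429 CPM among controls and from 0.0921 to 0.191 CPM among knockouts. Of the 50, 12 fell in the knockouts (24.0%, where 17.1% of all genes did), none rose (18.1% of all genes did), and 38 did not pass. Libraries of the 2 groups did not overlap, with the knockouts lower, in 9 of the 50 (12.4% of all genes). Point estimates below 0 were found for 46 of 50 (50.1% of all genes), with a median log2 fold change of -0.67 and a range from -1.55 to 0.37. The median over all genes tested was -0.001. The 4 above 0 were Hist1h2af (0.37), Hist1h2ak (0.15), Hist1h2bb (0.03) and Hist1h4i (0.08), singled out after their values were seen, and none of them passed.

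These counts are over genes that passed a filter on low counts, which bears on how they can be read. In 15 of the 51 kept genes more controls than knockouts had 10 or more counts, and in 0 the reverse. In 13 genes all 5 controls but fewer than 5 knockouts did, so they met the rule only with their controls counted; Hist1h4f, with 0 knockouts at 10 or more counts, and Hist1h2bf, with 2, are among them. Just inside the rule, with 5 such libraries, were Hist1h4f and Hist1h2ac (means of 10.1 and 9.6 counts), and just outside, with 4, were Hist1h2br, Hist1h4a and Hist2h4 (8.5, 10.3 and 9.5). Among the 35 genes with 10 or more counts in all 10 libraries, 10 fell and the median was -0.51. Most members are scarce: the median of their mean levels was 0.727 CPM, and among all tested genes under 15 CPM 10.4% were called lower and 46.5% had an estimate below 0.

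**Figure D2:**
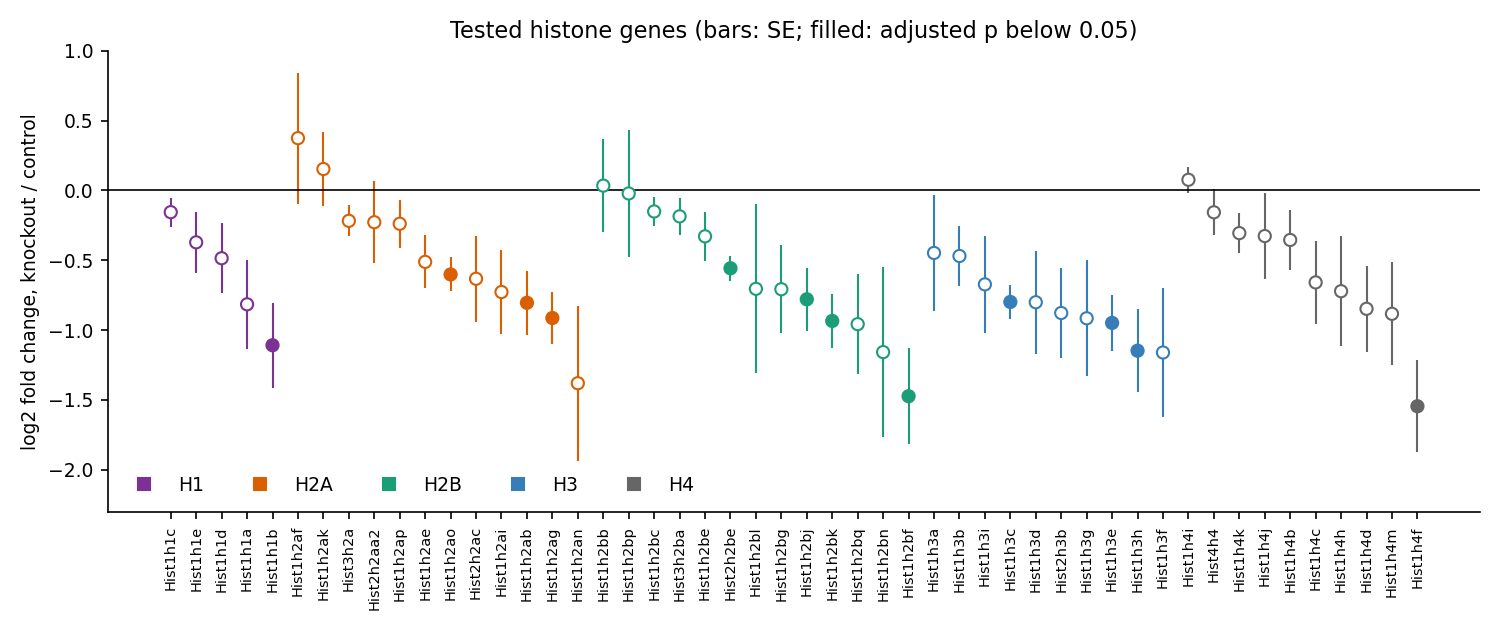
Log2 fold change of knockout over control (vertical axis) for the 50 tested histone genes, ordered within each type (colour), with bars of 1 SE. Filled points are the 12 genes with an adjusted p below 0.05, all below 0, and the estimates run from -1.55 for Hist1h4f to 0.37 for Hist1h2af.

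H1 genes showed 1 call among 5, and all 5 estimates were below 0 (median -0.49). Hist1h1b (chr13:21779883-21780625, minus strand), a linker histone of dividing cells, stood at 0.723, 1.28, 0.511, 0.647 and 0.697 CPM in controls 1 to 5 and 0.324, 0.229, 0.573, 0.368 and 0.313 CPM in knockouts 1 to 5. Control 2 was well above the other controls, and knockout 3 lay above the lowest control. The gene fell by 1.11 on the log2 scale (SE 0.30, edgeR adjusted p = 0.0136), and without litter A the estimate was -0.58 with an adjusted p of 0.262. Hist1h1c, the most abundant H1 gene here, stood at 8.98, 7.36, 8.31, 8.703 and 6.84 CPM in controls 1 to 5 and 6.63, 8.13, 6.52, 7.3 and 7.46 CPM in knockouts 1 to 5. Its groups overlap over most of their range (log2 fold change -0.16, edgeR adjusted p = 0.274). Hist1h1e, another linker histone, had a control mean of 2.18 ± 0.671 CPM and a knockout mean of 1.68 ± 0.355 CPM (SD, n = 5) and did not pass (-0.37, edgeR adjusted p = 0.213).

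Among 12 tested H2A genes, 3 fell: Hist1h2ag, Hist1h2ab and Hist1h2ao. The median of the 12 was -0.56. Hist1h2ag (chr13:22042460-22042944, minus strand) stood at 2.26, 2.92, 2.92, 2.65 and 2.54 CPM in controls 1 to 5 and 1.94, 1.49, 1.12, 1.497 and 1.001 CPM in knockouts 1 to 5. The highest knockout lay below the lowest control, and the gene fell by 0.91 on the log2 scale (SE 0.18, edgeR adjusted p = 0.00211). Hist1h2ab stood at 0.613, 1.02, 0.694, 0.7096 and 0.787 CPM in controls 1 to 5 and 0.299, 0.554, 0.513, 0.461 and 0.354 CPM in knockouts 1 to 5. Its groups do not overlap either (log2 fold change -0.81, SE 0.23, edgeR adjusted p = 0.016), but without litter A the adjusted p was 0.104 at -0.73.

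A single pair of H2A genes carried most of the family's counts. Hist1h2ao (chr13:21810465-21810944, plus strand) and Hist1h2ap (chr13:21833026-21833507, minus strand) held 65.3% of the summed CPM of the kept genes in controls and 64.8% in knockouts, and 90.9% of the H2A sum in both groups. Per kilobase of exon, Hist1h2ao was at 197 CPM and Hist1h2ap at 187 CPM in controls, and the next in level, Hist1h4i, at 17.8 CPM per kilobase. The 2 genes cannot be told apart by most of their sequence: 93.8% of the 31-base words of Hist1h2ao occur in Hist1h2ap, and 6.2% of them are in no other gene.

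Hist1h2ao stood at 106, 82.7, 93.5, 99.7 and 91.02 CPM in controls 1 to 5 and 73.1, 61.1, 74.5, 44.5 and 58.8 CPM in knockouts 1 to 5. Every knockout was below every control (log2 fold change -0.60, SE 0.12, edgeR adjusted p = 0.0023). Hist1h2ap stood at 104, 83.04, 74.2, 109.8 and 78.8 CPM in controls 1 to 5 and 53.9, 92.6, 66.01, 103 and 65.7 CPM in knockouts 1 to 5. Here knockouts 2 and 4 lay among the controls, and the gene did not pass (log2 fold change -0.24, SE 0.17, edgeR adjusted p = 0.316). The share of the pair assigned to Hist1h2ao ran from 47.6% to 55.7% in controls and from 30.2% (knockout 4) to 57.5% (knockout 1) in knockouts, so the split between the copies was wider in the knockouts. The sum of both was 210.4, 166, 168, 209.5 and 169.8 CPM in controls 1 to 5 and 127, 154, 141, 147 and 125 CPM in knockouts 1 to 5. All knockouts lay below the lowest control, with a log2 ratio of -0.41. The other 11 H2A genes had nearly the same log2 ratio, -0.42 (18.6 ± 1.08 against 13.9 ± 1.1 CPM). The test of each copy by itself is therefore uncertain, and the sum does not depend on the split between the 2 copies. Of the 480 31-base words of the pair, 26.9% are in no other gene, so other genes can still share reads with it.

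**Figure D3:**
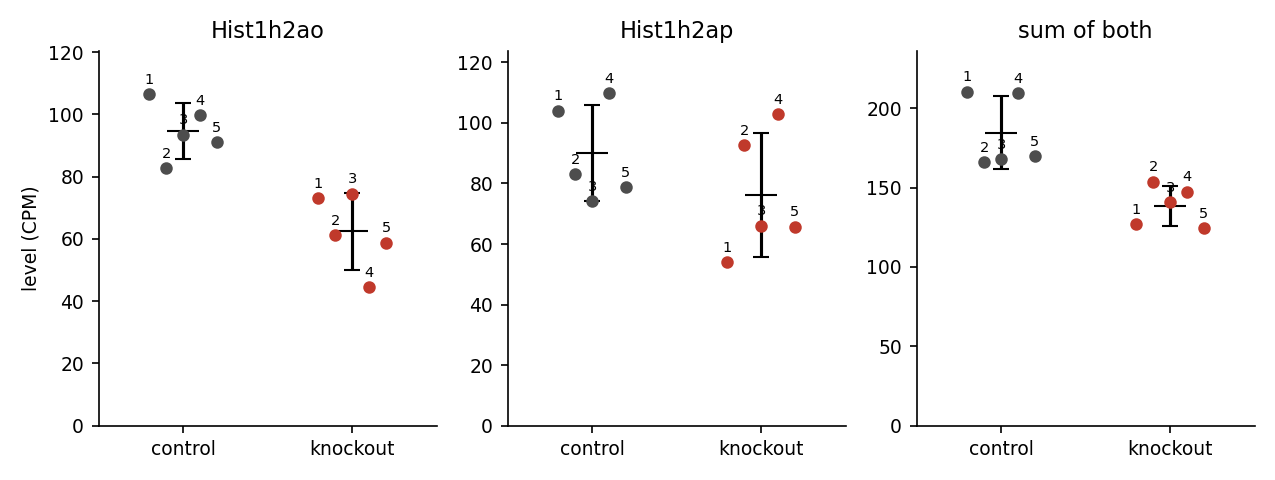
Level in CPM (vertical axes, each from 0) of Hist1h2ao, Hist1h2ap and their sum in each numbered library, with the mean and SD. Knockout 4 is lowest for Hist1h2ao and highest among knockouts for Hist1h2ap, and in the sum the 5 knockouts lie between 125 and 154 CPM, below all controls.

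H2B genes had 4 calls among 13 (30.8%, where 17.1% of all genes fell; median -0.70): Hist2h2be, Hist1h2bk, Hist1h2bf and Hist1h2bj. Hist2h2be (chr3:96221119-96223738, plus strand), the most abundant of them and 97.2% unique in 31-base words, stood at 11.3, 13.3, 12.1, 10.9 and 9.76 CPM in controls 1 to 5 and 7.602, 7.85, 7.78, 7.74 and 8.03 CPM in knockouts 1 to 5. The knockouts lay close together and below every control (log2 fold change -0.56, SE 0.09, edgeR adjusted p = 0.000414). Hist1h2bk (chr13:22035870-22036345, plus strand) stood at 3.22, 3.62, 2.59, 3.13 and 2.56 CPM in controls 1 to 5 and 1.196, 1.28, 2.35, 1.41 and 1.71 CPM in knockouts 1 to 5. The groups do not overlap (log2 fold change -0.94, SE 0.20, edgeR adjusted p = 0.00274), and the call was lost without litter A (-0.61, adjusted p = 0.11).

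Hist1h2bf stood at 0.898, 0.627, 0.449, 0.647 and 0.2698 CPM in controls 1 to 5 and 0.0997, 0.229, 0.241, 0.207 and 0.2502 CPM in knockouts 1 to 5. At 4 to 41 counts a library it is close to the limit of 3 counts, and knockout 1 was lowest. Only 2 knockouts reached 10 counts, so it too met the rule with its controls counted. It fell by 1.47 on the log2 scale (SE 0.35, edgeR adjusted p = 0.00551), with an adjusted p of 0.135 at -0.97 without litter A. Hist1h2bj, named after its value was seen, had a control mean of 1.95 ± 0.261 CPM and a knockout mean of 1.13 ± 0.388 CPM, fell by 0.78 (SE 0.23, edgeR adjusted p = 0.0183), and lost its call without control 1 and knockout 3 (-0.63, adjusted p = 0.0908). Hist1h2bc, another H2B gene, at 5.46 ± 0.567 CPM and 4.92 ± 0.382 CPM, did not pass (-0.15, edgeR adjusted p = 0.302).

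H3 genes had 3 calls among 10 (30.0%, where 17.1% of all genes fell) and the lowest median, -0.84, with all 10 estimates below 0. Hist1h3c (chr13:23744973-23745602, minus strand), the most abundant of them, stood at 3.96, 3.23, 3.17, 3.74 and 3.67 CPM in controls 1 to 5 and 1.99, 1.97, 2.08, 1.89 and 2.27 CPM in knockouts 1 to 5. The 5 knockouts lay within a narrow band below all controls (log2 fold change -0.80, SE 0.12, edgeR adjusted p = 0.000275). Hist1h3e stood at 1.12, 0.929, 0.694, 0.981 and 1.24 CPM in controls 1 to 5 and 0.548, 0.573, 0.422, 0.484 and 0.521 CPM in knockouts 1 to 5. The groups do not overlap (log2 fold change -0.95, SE 0.20, edgeR adjusted p = 0.00268).

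Hist1h3h stood at 1.84, 1.254, 1.92, 2.19 and 2.09 CPM in controls 1 to 5 and 0.573, 0.611, 1.69, 0.737 and 0.646 CPM in knockouts 1 to 5. Knockout 3 lay inside the control range, so the groups overlap, and control 2 was the lowest control. The gene fell by 1.15 on the log2 scale (SE 0.30, edgeR adjusted p = 0.00974), and without litter A the adjusted p was 0.0817 at -1.04. It shares 85.3% of its 31-base words with Hist1h3i, and 5.8% of them are its own. The other 7 H3 genes did not pass, at estimates from -1.16 (Hist1h3f) to -0.45 (Hist1h3a).

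H4 genes had 1 call among 10 (median -0.51), too few genes to tell that share from the 17.1% of all genes. Hist1h4f (chr13:23551258-23551648, minus strand) stood at 0.416, 0.325, 0.327, 0.2504 and 0.3598 CPM in controls 1 to 5 and 0.125, 0.0764, 0.211, 0.115 and 0.0625 CPM in knockouts 1 to 5. The groups do not overlap, but no knockout reached 10 counts, and the gene entered the list through its controls. It fell by 1.55 on the log2 scale (SE 0.33, edgeR adjusted p = 0.00309), with an adjusted p of 0.0939 at -1.32 without litter A. With the replicate number or the litter as a block, 2 H4 genes passed in place of 1: Hist1h4d joined it (-0.92, edgeR adjusted p = 0.0148 by number, and -0.91, 0.0185 by litter).

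Hist1h4i (chr13:22040636-22041362, minus strand) was the most abundant H4 gene, and its estimate was above 0. It stood at 12.1, 12.1, 12.2, 15.4 and 12.9 CPM in controls 1 to 5 and 14.5, 14.01, 15.2, 12.6 and 11.97 CPM in knockouts 1 to 5. The ranges overlap almost wholly (log2 fold change 0.08, SE 0.09, edgeR adjusted p = 0.579), and the estimate was -0.03 without litter A. Hist1h4k was at 3.36 ± 0.448 CPM and 2.71 ± 0.367 CPM and did not pass (-0.31, edgeR adjusted p = 0.115).

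Taken litter by litter, without a test, the kept genes lay below the litter's controls in 46 of 51 in litter A, 38 in litter B, 46 in litter C and 45 in litter D. Of all tested genes, 50.0%, 50.3%, 49.7% and 50.1% did so. The rule for keeping genes bears on these counts, since in 15 of the 51 more controls than knockouts had 10 or more counts. The reverse held in 0. The litters were not counted over only the 35 genes with 10 or more counts in all 10 libraries. With the litter as a block in the edgeR fit, 16 of the 50 passed as lower: the 12 above with Hist1h2ae, Hist1h2bq, Hist1h3g and Hist1h4d. The call of Hist1h2bq is uncertain, since 98.3% of its 31-base words occur in Hist1h2br. Without litter A, which holds 4 of the 10 libraries, 8 passed, of which 6 are among the 12, and 9.83% of all genes passed as lower.

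The members differ in how their gene models end, and this was compared with their fold changes as a description. Models were divided at 150 annotated bases after the stop codon. Of the 31 kept genes with 150 or fewer, 19 end within 100 bases of the stem-loop, 9 stop at the stop codon and 3 have further bases without the motif. Of the 20 with more, 17 run over 100 bases past the stem-loop and 3 lack the motif. Of 31 tested genes with 150 or fewer bases, 10 fell (median -0.73), and of 19 with more than 150, 2 fell (median -0.49): Hist2h2be and Hist1h3e. These shares are 32.3% and 10.5%, where 17.1% of all genes fell and 10.4% of genes under 15 CPM did. Among genes with a mean of 50 or more counts, 6 of 9 short models fell (median -0.78) and 1 of 10 long models did (median -0.20). The summed level of the long models was 66.5 ± 3.15 CPM over controls and 55.6 ± 0.958 CPM over knockouts (log2 ratio -0.26). The short models without Hist1h2ao and Hist1h2ap summed to 31.6 ± 1.998 CPM and 19.6 ± 2.195 CPM (log2 ratio -0.69). Both sums were without overlap of the groups, and the difference between the 2 kinds of model was not tested.

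The same genes also differ in how much of their sequence is their own, and the 2 properties cannot be told apart here. Of 31 tested genes with under 50% of 31-base words unique, 10 fell (median -0.78), and of 19 with 50% or more, 2 fell (median -0.37): Hist2h2be and Hist1h1b. These shares are 32.3% and 10.5%, where 17.1% of all genes fell. The 50% limit was chosen after the data were seen. The median share of unique words over the kept genes was 41.1%. Exons on the opposite strand overlap 15 kept genes and exons on the same strand 4, and the sources used here do not say whether the counting used strand.

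**Figure D4:**
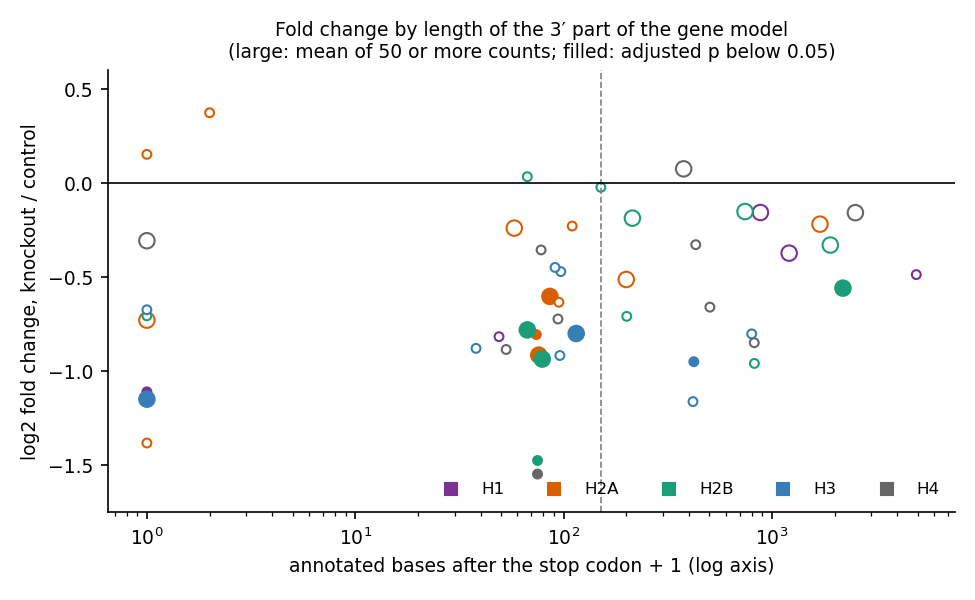
Log2 fold change of knockout over control (vertical axis) against annotated bases after the stop codon plus 1 (log horizontal axis) for the 50 tested genes, coloured by type, with a dashed line at the 150-base division. Large points have a mean of 50 or more counts and filled points passed the test: 6 of the 9 large points left of the line are filled and 1 of the 10 on its right. The 50-count limit was chosen after the data were seen, and 17.1% of all tested genes fell.

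Promoter sequence was examined because Cxxc1 binds CpG and because most members had estimates below 0. RefSeq promoters of the build GRCm38.p6, 250 bases before to 50 after the start, were matched for 60 of the 70 genes, 45 of them kept. The letters ATTTGCAT (the octamer known from H2B promoters), CCAAT and TATAAA were searched on both strands over these 300 bases. The octamer was in 8 of the 45 (17.8%, and 1.735% of all 32851 promoters), all of them H2A or H2B genes. CCAAT was in 37 (82.2%, and 37.4% of all), and in 2 of 10 H4 promoters. TATAAA was in 26 (57.8%, and 13.6% of all). The median number of CpG in 300 bases was 11 over the members and 7 over all promoters. It was 12 in the 11 promoters of genes that fell and 11 in the 33 of genes that did not pass, with a range of 5 to 18 in the first and 3 to 36 in the second.

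The 250 bases before the RefSeq start are shown for 2 H2B genes that fell and for the H4 gene with the highest level, with these letters in capitals.
Hist1h2bj: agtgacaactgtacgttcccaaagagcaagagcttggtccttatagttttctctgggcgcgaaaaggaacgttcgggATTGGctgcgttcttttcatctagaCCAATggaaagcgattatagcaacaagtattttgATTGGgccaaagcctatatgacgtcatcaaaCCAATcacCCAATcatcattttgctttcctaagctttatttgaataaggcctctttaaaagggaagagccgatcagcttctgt
Hist1h2bk: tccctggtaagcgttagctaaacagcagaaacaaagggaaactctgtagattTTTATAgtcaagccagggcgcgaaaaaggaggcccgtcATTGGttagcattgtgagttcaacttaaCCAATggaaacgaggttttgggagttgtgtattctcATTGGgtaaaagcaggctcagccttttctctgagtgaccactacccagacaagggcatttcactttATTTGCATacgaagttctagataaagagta
Hist1h4i: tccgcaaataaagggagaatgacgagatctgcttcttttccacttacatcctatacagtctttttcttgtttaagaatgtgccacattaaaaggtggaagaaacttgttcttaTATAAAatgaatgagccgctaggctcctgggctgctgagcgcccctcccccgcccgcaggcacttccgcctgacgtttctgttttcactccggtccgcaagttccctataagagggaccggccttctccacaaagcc
The first (chr13:22042948-22043197, plus strand) lies wholly between Hist1h2bj and Hist1h2ag, which start on opposite strands 269 bases apart and both fell. It holds CCAAT on both strands and no octamer in these letters. The second (chr13:22035571-22035820, plus strand) holds all 3 motifs, with TATAAA only on the strand opposite to Hist1h2bk. It too lies wholly between 2 genes, Hist1h2bk and Hist1h2ah, which start on opposite strands 301 bases apart. The third (chr13:22041363-22041612, minus strand) holds TATAAA alone.

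Such divergent pairs are the usual arrangement of H2A and H2B genes. The table holds 13 of them, starting 172 to 305 bases apart. Both genes were tested in 7 of them. In 6 of these both estimates were below 0, Hist1h2ak and Hist1h2bn (0.15 and -1.16) being the exception. Over all 50 tested members 46 estimates (92.0%) were below 0, so this count describes the members in general and not the pairing. Both genes fell in 1 pair, Hist1h2ag and Hist1h2bj (-0.91 and -0.78), and 1 of the 2 fell in 2 pairs. Those were Hist1h2ao with Hist1h2bq (-0.60 and -0.96) and Hist2h2be with Hist2h2ac (-0.56 and -0.63). Hist1h2bq missed the threshold at an edgeR adjusted p of 0.055, but 98.3% of its 31-base words occur in Hist1h2br. That copy, not kept by the rule, went the other way at 0 to 21 counts a library. It stood at 0.138 ± 0.190 CPM over controls and 0.254 ± 0.205 CPM over knockouts. The estimate and test of Hist1h2bq by itself are therefore uncertain.

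Genes of 5 lists that surround histone supply were counted in the same fit, where 17.1% of all genes passed as lower and 18.1% as higher. Nearly all of these list genes lie above 15 CPM. Among tested genes under 15 CPM 10.4% passed as lower, so the share among the more abundant genes is above 17.1%. The list of replication-independent histones, many but not all of which are made throughout the cell cycle from polyadenylated mRNAs, fell in 9 of 11 and rose in 1 (median -0.34). H1f0, a linker histone of resting and differentiating cells, fell from 586 ± 27.5 to 359 ± 17.3 CPM (SD, n = 5), with no overlap (log2 fold change -0.71, edgeR adjusted p = 6.14e-07). H2afv, an H2A.Z protein, fell by 0.53, from 154 ± 4.59 to 107 ± 7.23 CPM (edgeR adjusted p = 7.59e-06). H3f3b, which encodes the replacement histone H3.3, fell by 0.38, from 851 ± 19.0 to 654 ± 13.2 CPM (edgeR adjusted p = 1.04e-05). The exception was H2afj, a variant of H2A. It stood at 15.7, 15.8, 15.9, 16.2 and 18.5 CPM in controls 1 to 5 and 39.98, 37.4, 32.8, 31.5 and 31.1 CPM in knockouts 1 to 5, with every knockout above every control (log2 fold change 1.07, edgeR adjusted p = 1.75e-06).

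Genes of histone mRNA transcription and 3′ processing did not pass in 14 of 19, with 1 lower and 4 higher (median 0.00). Slbp stood at 148, 151, 142, 148 and 152 CPM in controls 1 to 5 and 144, 147, 147, 144 and 150.3 CPM in knockouts 1 to 5. The groups overlap (log2 fold change -0.02, SE 0.04, edgeR adjusted p = 0.748). Npat, the coactivator at histone loci, was at 63.7 ± 4.37 and 56.4 ± 4.32 CPM (-0.18, edgeR adjusted p = 0.0503). Casp8ap2, which works with it there, was at 113 ± 32.3 and 81.7 ± 10.1 CPM (-0.47, edgeR adjusted p = 0.0606). Neither passed. Npat passed as lower with the replicate number or the litter as a block (edgeR adjusted p = 0.0447 and 0.0297), which made 2 lower calls in this list. It also passed with DESeq2 (adjusted p = 0.0444), limma (adjusted p = 0.0482) and in edgeR without control 4 or knockout 5 (adjusted p = 0.0279 and 0.02). Casp8ap2 passed as lower with DESeq2 (-0.47, adjusted p = 0.0286) and in edgeR without control 4 (-0.62, adjusted p = 0.00218). Lsm11, a subunit of the U7 particle, fell from 30.4 ± 1.47 to 24.3 ± 1.66 CPM (-0.32, edgeR adjusted p = 0.00137). Ncbp1, of the nuclear cap-binding complex, rose from 166 ± 11.5 to 201 ± 9.55 CPM (0.27, edgeR adjusted p = 0.0018). Its partner Srrt (0.22), the processing scaffold Sympk (0.22) and the RNA helicase of mRNA decay Upf1 (0.23), named after its value was seen, rose as well. Without litter A Sympk (0.12, edgeR adjusted p = 0.259) and Upf1 (0.15, 0.163) did not pass.

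Histone chaperones and importers had 4 higher and 3 lower of 23 (median 0.02). The importin Ipo4 rose from 88.6 ± 9.06 to 131 ± 6.94 CPM (0.56, edgeR adjusted p = 6.14e-05), and the H3.3 chaperones Hira (0.23) and Daxx (0.24) rose. Atrx, the partner of Daxx, fell by 0.45, the CENP-A chaperone Hjurp by 0.26 and Rbbp4, of several histone-binding complexes, by 0.16. Without litter A Daxx (0.16), Atrx (-0.33) and Rbbp4 (-0.15) did not pass (edgeR adjusted p = 0.242, 0.115 and 0.14). Daxx also lost its call without control 1, control 2, knockout 3 or knockout 5 and without control 1 and knockout 3 together (0.18, edgeR adjusted p = 0.109), and Rbbp4 with the controls labelled without Cre only (-0.14, edgeR adjusted p = 0.0545).

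Cell cycle genes were counted because histone mRNA follows S phase. Of 27 genes of G1/S and DNA replication, 5 fell, 3 rose and 19 did not pass (median -0.06). Tyms (-0.31) and Rrm1 (-0.29), of nucleotide synthesis, and the primase Prim1 (-0.21) fell, and Ung (0.29), Ccne1 (0.19) and Fen1 (0.18) rose. Without litter A Prim1 (-0.15), Ung (0.25), Ccne1 (0.23) and Fen1 (0.14) did not pass (edgeR adjusted p = 0.181, 0.0683, 0.0774 and 0.292). With the controls labelled without Cre only, and without control 1 and knockout 3 together, Prim1, Ccne1 and Fen1 did not pass (edgeR adjusted p from 0.0633 to 0.133). Without any 1 of controls 1, 2 and 3 or knockouts 3 and 4, Ccne1 and Fen1 did not pass at estimates from 0.15 to 0.19, nor did Fen1 without knockout 1 (0.18, edgeR adjusted p = 0.0616) or with no filter on low counts (0.18, edgeR adjusted p = 0.0565). Of 18 genes of G2/M and mitosis, 10 fell and 0 rose (median -0.19), with Ube2c at 196 ± 7.49 and 144 ± 4.08 CPM (-0.45, edgeR adjusted p = 4.74e-06), Ccnb2 (-0.41) and Ccnb1 (-0.36). The histone members' median of -0.67 was lower than that of each of these lists, but it rests largely on scarce genes. Among the 19 members with a mean of 50 or more counts the median was -0.37, close to the -0.34 of the replication-independent histones. Among members under 50 counts it was -0.72. The part that cycling cells or the cell types counted above have in the histone values was not tested.

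**Figure D5:**
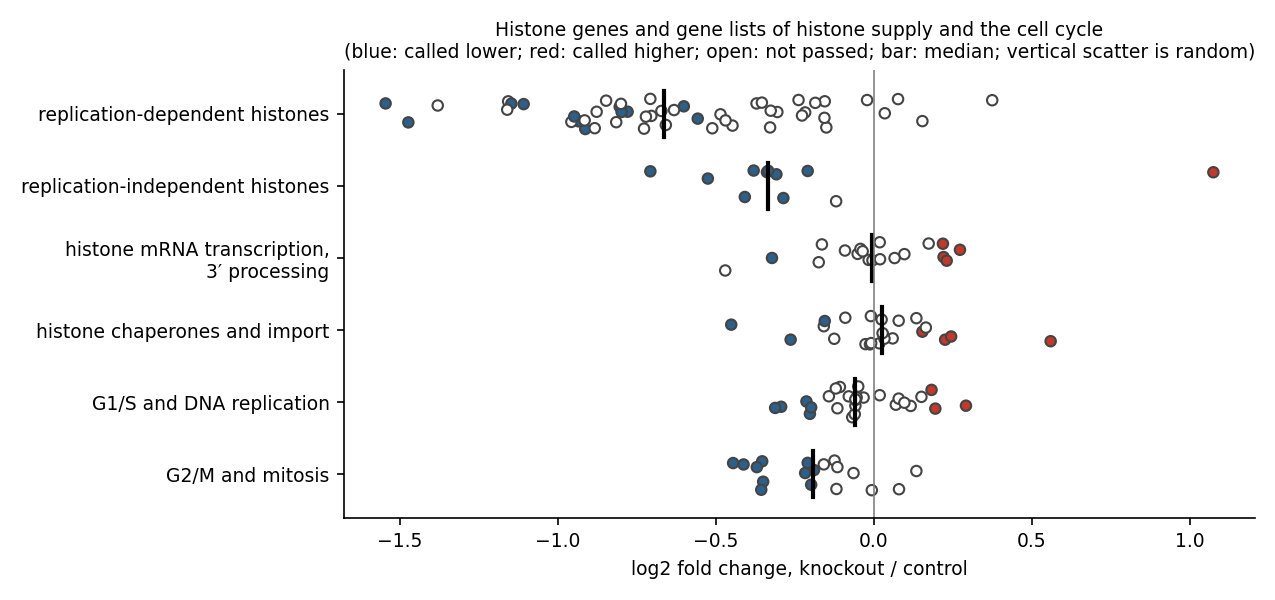
Log2 fold change of knockout over control (horizontal axis) for the tested histone genes and the genes of 5 lists (rows), with a bar at each median and random vertical scatter. Blue points passed the test as lower, red as higher and open points did not pass: the histone median is -0.67, the medians of the 5 lists lie between -0.34 and 0.02, and H2afj stands apart at 1.07. For the 19 histone genes with a mean of 50 or more counts the median is -0.37.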

How the data were processed

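Forelimb bud RNA was sequenced in 10 libraries, grouped by the labels' titles. The deposited raw table holds estimated counts per gene from Salmon 0.8.2, with R 3.4.1 and DESeq2 1.16.1 also listed, all per the submitters' processing notes, which name the build mm10; the sources used here do not give the annotation of the index. A second deposited table, named as FPKM, holds a signal that equals rounded counts over 1 scaling factor for each library (100.0% of its values matched within a tolerance of 0.01); it was used only for limma on log2(value + 1). Gene names came from GENCODE M21, which matched 47310 of 47729 identifiers.

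Estimated counts were rounded and fitted with edgeR 4.0.16 in R 4.3.3 (filterByExpr with 10 and 15 counts, trimmed mean scaling, quasi-likelihood test, no covariate, Benjamini-Hochberg over 20562 genes, threshold 0.05), over the whole table. SE is the log2 fold change divided by the root of F. CPM use the scaled library size. DESeq2 1.42.0 and limma 3.58.1 were alternatives, with other scaling, no filter, blocks, a somite term and libraries left out. In data simulated from these libraries for knockout against control (20562 genes), 2% of 50 genes changed by 1.25-fold were recovered, 48% at 1.5-fold, 92% at 2-fold and 92% at 4-fold, with 4 unchanged genes called. The simulation gave all genes the same biological coefficient of variation (16.4%), so these shares need not hold for the scarce members. Among members with estimates beyond 2-fold, Hist1h1b, Hist1h2bf, Hist1h3h and Hist1h4f passed. Hist1h2an (-1.38), Hist1h2bn (-1.16) and Hist1h3f (-1.16) did not. Depth was 33274911 to 49880815 estimated counts, so 3 counts equal 0.060 to 0.090 CPM; such limits cover counting error only. Replicates differed beyond sampling noise (chi-square per degree of freedom 17.3 to 49.5).

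Same-numbered libraries share a litter per the labels, which pairs them; their deviations correlated at -0.013, 0.155, -0.025, 0.042 and 0.20. Named genes were Cxxc1, Slbp, Npat and Casp8ap2, for each histone type the 2 most abundant and up to 3 of smallest adjusted p, and for each list up to 3 per direction. Members, lists and rules were chosen with earlier results of these data known.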

Additional observations from a re-analysis of the deposited data

Results flagged for a closer look

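In groups of 5 libraries, 98 groups of values were examined for a library far from the other 4, and 8 stood apart; chance alone marks about 1 group in 20. Among controls, control 2 was the highest for Hist1h1b (1.28 CPM) and Hist1h1e (3.37 CPM), control 4 for Hist1h4i (15.4 CPM) and control 5 for H2afj (18.5 CPM). Among knockouts, knockout 2 was the lowest for Hist1h2bc (4.26 CPM), knockout 1 the lowest for Hist1h2bf (0.0997 CPM), knockout 3 the highest for Hist1h3h (1.69 CPM) and knockout 5 the highest for the H2B sum (24.0 CPM). Leaving out each of these libraries in turn kept the calls of the 12 members that fell, and no member was called higher.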

How the results depend on the processing

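The 12 members called lower were all called under other scaling, DESeq2, no filter, limma, the replicate block by number or by litter, a somite term and with any 1 library left out. Without litter A 6 of them were called, and 11 with the controls labelled without Cre only or without control 1 and knockout 3, Hist1h2bj being lost in both. Passing as lower were 14 members with the replicate block by number and 16 by litter; beside those additions and the call of Npat, the block changed no call among the named genes. Counting only members with 50 or more counts in 5 or more libraries gave 7, and, in alternatives chosen after seeing the data, a mean of 50 or more counts gave 7 and 50% or more unique 31-base words gave 2; fewer genes enter these 3 counts. By type, calls were 0 for H1 (from 1) and 2 for H2B (from 4) without litter A, and 5 for H3 (from 3) with controls without Cre. For H4 (from 1) they were 2 with DESeq2, limma and either replicate block, 0 without litter A and 3 without control 1 and knockout 3. With 1 library left out, calls ran from 1 to 2 for H1 (2 without control 1 or knockout 5), 3 to 5 for H3 (5 without control 5) and 1 to 3 for H4 (3 without knockout 3, 2 without control 5 or knockout 5). For mRNA transcription and processing, calls lower (from 1) were 3 with DESeq2 and 2 with limma and each replicate block, and ran from 1 to 3 with 1 library left out (3 without control 4, 2 without knockout 5); calls higher (from 4) were 2 without litter A. For chaperones, calls higher (from 4) were 2 without litter A and without control 1 and knockout 3, and ran from 2 to 4 (2 without control 2, knockout 3 or knockout 5). For G1/S, calls lower (from 5) were 2 without litter A and with Cre-free controls; calls higher (from 3) were 0 without litter A and 1 each with controls lacking Cre and without control 1 and knockout 3, and ran from 1 to 3 (1 without control 1, 2 or 3 or knockout 3 or 4). For G2/M, calls higher (from 0) were 1 by library size only and ran from 0 to 1 (1 without knockout 5). Estimates changed sign for Hist1h4i (-0.03 without litter A) and Slbp (0.03 by library size only), neither past the threshold. The cause of these changes was not tested. The summed log2 ratios kept their sign: -0.35 to -0.24 for H1, -0.45 to -0.37 for H2A, -0.51 to -0.45 for H2B, -0.88 to -0.81 for H3 and -0.19 to -0.09 for H4 with 1 library left out. Depth limits members near 10 counts most.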
